A study of Mus musculus with 24 samples.

Results

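Agouti (symbol a), Ghrh, Sstr4 and Nnat are 4 of the 341 genes measured on a custom mouse exon array, and they were taken as every exon row and every probe annotated to these symbols. They hold 7 of 523 transcripts, 21 of 3919 exon rows (19 of 3099 once rows with identical coordinates were averaged) and 102 of 13388 probes. Whole brain, the liver, the gastrocnemius muscle and the epididymal white fat pad were sampled in C57BL/6J mice (B6) and in the B6.S-2 congenic strain, a C57BL/6J strain in which a distal stretch of chromosome 2 comes from SPRET/Ei. Each of the 8 groups has 3 biological replicates, so 24 arrays in all. Every sample, the B6 samples included, has the same entry in the treatment field, the housing text speaks of F2 mice and of more than 1 diet, and no label gives the age or diet of a sample. The labels do not say whether the 4 tissues came from the same animals.

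Agouti is a secreted antagonist of melanocortin receptors. In mice it normally acts in skin on coat colour, and its expression in other tissues in mutant strains causes obesity through the brain melanocortin receptor. C57BL/6J mice are nonagouti. Ghrh encodes growth hormone-releasing hormone, the hypothalamic peptide that stimulates pituitary growth hormone release, while somatostatin, acting on receptors of the family to which Sstr4 belongs, inhibits it. Nnat, neuronatin, is a small endoplasmic reticulum membrane protein encoded by an imprinted gene expressed from the paternal copy, known for expression in the developing brain and in adipose tissue.

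In the coordinates of the files, whose genome build is not given in the sources used here, all 4 genes lie on chromosome 2. Sstr4 spans 148147904 to 148153504 on the plus strand with 2 exon rows, agouti 155076925 to 155114332 on the plus strand with 5, Ghrh 157392845 to 157410004 on the minus strand with 5, and Nnat 157623458 to 157625866 on the plus strand with 9 rows from 3 transcripts, which reduce to 7 distinct stretches. Nnat lies inside the span of Blcap (157619711 to 157629686), which runs on the opposite strand. Exon rows are numbered here from the lowest coordinate of each gene, and the 7 Nnat stretches overlap: rows 1 to 3 overlap at the first exon, rows 4 and 5 the middle exon and rows 6 and 7 the last exon, so they are not independent measurements.

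The 250 bases upstream of the start are shown for Nnat and Sstr4, the members whose gene values differed between brain and liver. They come from RefSeq (GRCm38.p6, plus strand, chr2:157559828-157560077 and chr2:148395127-148395376), are written 5′ to 3′, and have each CG in capitals, the dinucleotide at which DNA methylation of imprinted promoters occurs.
Nnat: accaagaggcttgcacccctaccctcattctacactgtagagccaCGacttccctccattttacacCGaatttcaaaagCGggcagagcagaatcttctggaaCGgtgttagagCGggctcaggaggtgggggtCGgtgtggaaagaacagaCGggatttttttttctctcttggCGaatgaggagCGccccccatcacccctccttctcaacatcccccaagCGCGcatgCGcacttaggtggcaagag
Sstr4: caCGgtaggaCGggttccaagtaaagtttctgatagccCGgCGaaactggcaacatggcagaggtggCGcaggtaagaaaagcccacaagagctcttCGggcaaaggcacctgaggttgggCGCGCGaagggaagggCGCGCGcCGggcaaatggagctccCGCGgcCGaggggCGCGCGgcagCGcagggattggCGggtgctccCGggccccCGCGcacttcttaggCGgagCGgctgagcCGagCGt
The Nnat window holds 12 CG and the Sstr4 window 28, against a median of 6 over the 32851 windows of the table. Of all windows, 33.5% hold at least as many CG as Nnat and 7.61% at least as many as Sstr4. The agouti window holds 3 CG, and the windows of the 2 annotated Ghrh starts hold 10 and 3. The motif TATAAA, searched on both strands, was in the Ghrh window that ends at the start at the lower coordinate and in none of the other member windows, while 12.4% of all windows hold it. The arrays do not measure methylation.

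The arrays were of uneven brightness. The median raw intensity per array ran from 232 to 1237 on the slide that carried brain and liver and from 916 to 3571 on the slide that carried adipose tissue and muscle, and the number of arrays limits the precision. Tissue and slide cannot be told apart between the slides, so tissues were tested within a slide. Replicates within a group correlated at r = 0.920 to 0.989. Tissue labels were checked by marker genes. Of all genes 34.3% were called between brain and liver and 36.1% between adipose tissue and muscle. Of 7 neuronal genes 5 were higher in brain than in liver and 1, the member Sstr4, was lower. In liver 4 of 4 hepatocyte genes were higher than in brain, and 2 of 2 muscle genes were higher in muscle than in adipose tissue. In adipose tissue 3 of 5 adipocyte genes were higher and 2 lower than in muscle, and 7 of 10 genes of epididymis and testis were higher. One congenic adipose array (replicate 1) and 1 congenic muscle array (replicate 3) stood apart in the seminal vesicle gene Svs4, at log2 values of 12.43 and 12.89 against 8.93 to 11.44 on the other 22 arrays. The shift in adipose tissue was not of 1 array alone: the summed level of 6 seminal vesicle genes was 12.32 to 13.56 in the 3 congenic adipose arrays and 11.20 to 12.12 in the 3 B6 ones. In brain the summed level of the 7 neuronal genes was 13.11 to 13.27 in the congenic arrays and 13.33 to 13.62 in the B6 ones. In both cases the genotypes did not overlap. They also did not overlap in the immune genes in brain, in the adipocyte genes in liver, and in the hepatocyte and endothelial genes in muscle. The glial list held only Cst3, whose values did not overlap in liver and muscle and which was not called by genotype there. In every other pairing of list and tissue the genotypes overlapped. The share of all genes without overlap was not computed, so these separations are a description. Of the 7 neuronal genes 2 were called lower in congenic brain, where 0.880% of all genes were called. Of the 6 seminal vesicle genes 0 were called by genotype in adipose tissue, where 1.47% of all genes were. The part of the neuronal and seminal vesicle shifts in the genotype differences of brain and adipose tissue was not tested.

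Nnat was the member with a tissue pattern. Gene values are log2 intensities after background correction and quantile normalization, summarised over a gene's exon rows. In B6 brain the 3 Nnat values were 10.96, 10.30 and 11.17, and in congenic brain 10.72, 10.92 and 10.91. In B6 liver they were 9.37, 9.17 and 9.24, and in congenic liver 9.04, 9.17 and 9.19. All 6 brain arrays lay above all 6 liver arrays, and the genotypes were interspersed.

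On the other slide, B6 adipose tissue gave Nnat values of 10.49, 10.40 and 11.18, and congenic adipose tissue 9.74, 10.72 and 10.64. B6 muscle gave 9.08, 9.41 and 9.44, and congenic muscle 9.39, 9.32 and 9.57. All 6 adipose arrays lay above all 6 muscle arrays, with the congenic adipose array at 9.74 nearest to them.

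**Figure D1:**
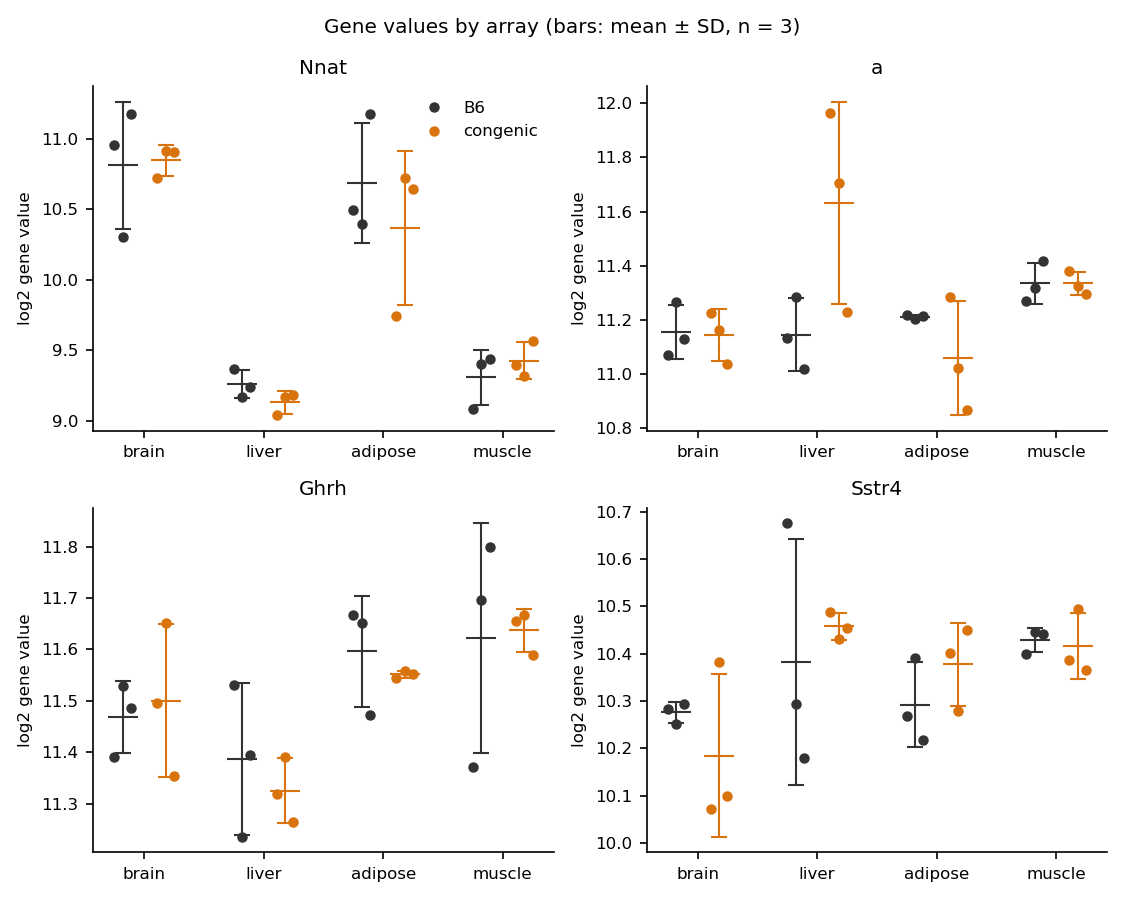
Log2 gene value of Nnat, agouti (a), Ghrh and Sstr4 on each of the 24 arrays, by tissue and genotype, with bars for the mean ± SD of 3 arrays. The vertical scales differ between genes; Nnat ranges from 9.04 to 11.18 and separates brain and adipose tissue from liver and muscle, while Ghrh ranges only from 11.24 to 11.80.

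Nnat was 3.10-fold higher in brain than in liver (log2 difference 1.63 ± 0.16 SE, limma adjusted p = 1.20e-07; 1.01 with no background correction and median scaling) and 2.24-fold higher in adipose tissue than in muscle (1.16 ± 0.16, limma adjusted p = 8.77e-06). It passed in brain against liver together with Sstr4, which was lower in brain, so that 2 of 4 members were called where 34.3% of all 341 genes were. In adipose tissue against muscle 1 of 4 members was called, where 36.1% of all genes were. The median log2 difference over the 4 members was -0.03 between brain and liver and -0.07 between adipose tissue and muscle, beside -0.01 and -0.05 over all genes. The summed level of the 10 epididymis and testis genes was 15.33 to 15.60 in the adipose arrays and 12.72 to 13.14 in the muscle arrays, and its part in the Nnat difference was not tested. Without the 2 arrays high in Svs4 the Nnat difference between adipose tissue and muscle was 1.36. In bulk tissue, more cells that express a gene and more RNA per cell cannot be told apart.

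By mean level Nnat ranked congenic brain (10.85 ± 0.11 SD, n = 3), B6 brain (10.81 ± 0.45), B6 adipose (10.69 ± 0.43), congenic adipose (10.37 ± 0.54), congenic muscle (9.43 ± 0.13), B6 muscle (9.31 ± 0.20), B6 liver (9.26 ± 0.10) and congenic liver (9.13 ± 0.08). Neighbours in this order lay farther apart than the larger of their SDs between congenic adipose tissue and congenic muscle (0.94) and between B6 and congenic liver (0.13); the latter pair did not pass the genotype test. The order between tissues of different slides is a description.

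The tissue difference ran through the whole Nnat gene. All 7 exon stretches were called higher in brain than in liver, by 1.01 to 2.48 on the log2 scale, and all 7 higher in adipose tissue than in muscle, by 0.90 to 1.91. Over all 3099 stretches 27.8% were called in either direction between brain and liver and 28.6% between adipose tissue and muscle. The last exon gave the largest differences: its shorter stretch (row 6, 157624890 to 157625797) was 5.57-fold higher in brain than in liver (2.48 ± 0.21 SE, limma adjusted p = 6.38e-09) and 3.75-fold higher in adipose tissue than in muscle (1.91 ± 0.21, limma adjusted p = 3.86e-07). The stretch with the smallest difference was the long form of the first exon (157623488 to 157623884), at 1.01 ± 0.19 and 0.90 ± 0.19.

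**Figure D2:**
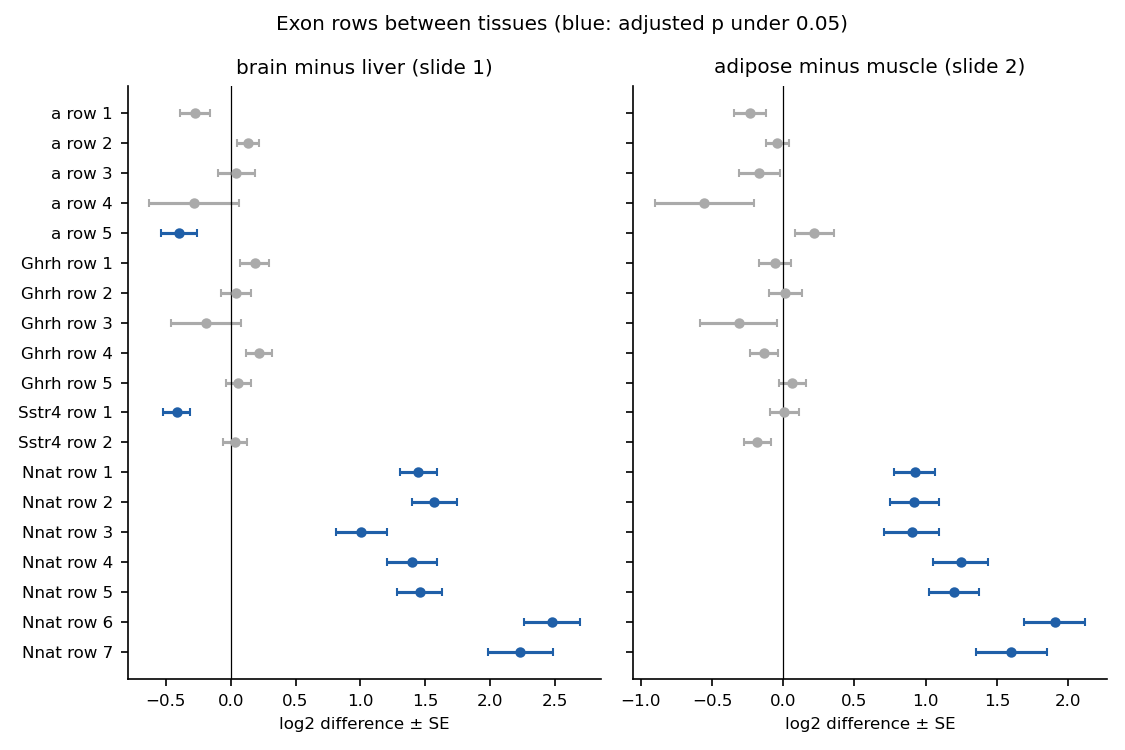
Log2 difference ± SE of each exon stretch of the 4 genes between brain and liver (left, 12 arrays) and between adipose tissue and muscle (right, 12 arrays), in blue where limma's adjusted p over 3099 stretches was under 0.05. The 7 Nnat stretches are blue in both panels, at 1.01 to 2.48 and 0.90 to 1.91; outside Nnat only agouti row 5 and Sstr4 row 1 are blue, both lower in brain.

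Most single probes followed the exons, but not those of 1 first-exon row. In that row 1 of 5 probes was called higher and 1 lower in brain than in liver, and 1 higher in adipose tissue than in muscle. In the authors' normalized probe values 35 of the 45 Nnat probes were called higher and 1 lower in brain than in liver, and 32 higher and 0 lower in adipose tissue than in muscle, where 18.9% and 17.7% of all 13388 probes were called in either direction. The median Nnat probe differed by 1.73 between brain and liver and by 1.52 between adipose tissue and muscle, but the probes spread from -0.67 to 5.52 and from -0.39 to 4.47. The largest differences belonged to probes of the last exon. Probes from different transcripts can lie on the same bases, so the 45 are not separate tests.

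Blcap, the gene on the opposite strand around Nnat, did not pass between these tissues. Its log2 difference was 0.07 ± 0.11 between brain and liver (limma adjusted p = 0.721) and -0.14 ± 0.11 between adipose tissue and muscle (limma adjusted p = 0.354). Of a list of 8 genes of imprinted domains on distal chromosome 2, 5 were measured. Between brain and liver 1 was called higher (Nnat) and 2 lower (H13 at -0.18 and Sgk2 at -0.27), where 34.3% of all genes were called. Between adipose tissue and muscle 2 were called higher (Nnat and H13, the latter at 0.30), where 36.1% of all genes were called.

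Congenic and B6 samples did not differ in Nnat beyond the test's threshold in any tissue. The log2 difference, congenic minus B6, was 0.04 ± 0.23 in brain (95% interval -0.45 to 0.52), -0.13 ± 0.23 in liver (-0.62 to 0.36), -0.32 ± 0.23 in adipose tissue (-0.81 to 0.16) and 0.12 ± 0.23 in muscle (-0.37 to 0.60). The adipose value rests on congenic replicate 1, the array high in Svs4: without it the difference was 0.01, and without both arrays high in Svs4 it was 0.02. The other 2 congenic adipose arrays were also above the B6 ones in the summed seminal vesicle genes.

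One Nnat probe behaved differently from the other 44. It is the fourth of the 5 probes of the shorter stretch of the last exon, and its values are the authors' normalized intensities. In B6 brain they ran from 1310 through 1317 to 3636, and in congenic brain from 103 through 174 to 297. In B6 adipose tissue they ran from 1307 through 1968 to 2838, and in congenic adipose tissue from 128 through 175 to 187. In both tissues every congenic array lay below every B6 array. The share of all probes with such a separation was not computed. B6 liver gave 187 to 239 and congenic liver 98.9 to 191, and B6 and congenic muscle gave 110 to 181 and 111 to 143.

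The log2 difference of this probe, congenic minus B6, was -3.40 ± 0.40 SE in brain (limma adjusted p = 2.47e-05) and -3.59 ± 0.40 in adipose tissue (limma adjusted p = 1.97e-05), against -0.66 ± 0.40 in liver (adjusted p = 0.469) and -0.10 ± 0.40 in muscle (adjusted p near 1). It was the single one of the 102 member probes called by genotype (1.35% of all probes were called for the mean over tissues and 0.246% for the interaction), where 0.471% of all probes were called in brain, 0.799% in liver, 0.448% in adipose tissue and 0.418% in muscle. The congenic values lay near those of liver and muscle (98.9 to 239), where the intensity is low in both genotypes, so the size of the difference depends on how low values are treated: the mean over tissues was -1.94, and -1.72 with 50 added before log2. The congenic brain arrays were also lower in the summed neuronal genes and the congenic adipose arrays higher in the summed seminal vesicle genes. The part of these shifts in the difference of the probe was not tested. Probe sequences were not at hand, so the match of this probe to B6 and SPRET/Ei sequence was not tested either. The probe was singled out after its values were seen.

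The other 4 probes of the same stretch showed no such difference: congenic minus B6 ran from -0.62 to 1.04 in brain and from -0.47 to 0.05 in adipose tissue, and none was called. Over the other 44 Nnat probes the median was 0.05 in brain and -0.27 in adipose tissue. The scanner files average the probes of a stretch, and there the stretch that holds this probe differed by -0.18 in brain and -0.57 in adipose tissue, neither called. The adipose value of the stretch came from congenic replicate 1, at 9.43 against 10.89 and 11.06 on the other congenic arrays, and was -0.05 without it.

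**Figure D3:**
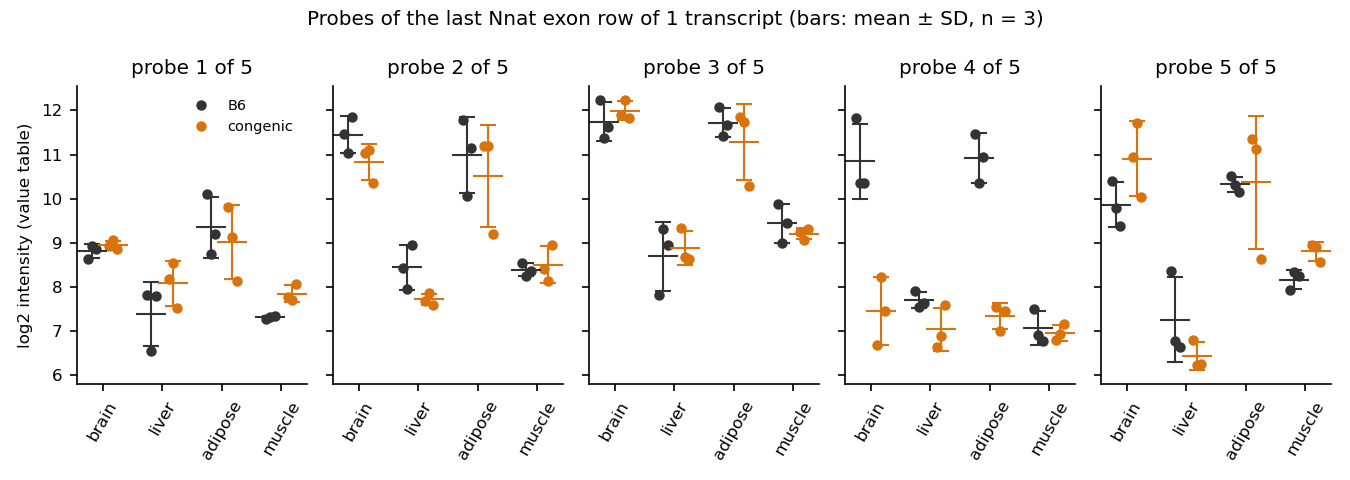
Log2 intensity of each of the 5 probes of the shorter stretch of the last Nnat exon, by tissue and genotype, on the 24 arrays, with bars for the mean ± SD of 3 arrays. Probe 4 is low in congenic brain and adipose tissue, 3.40 and 3.59 below B6, while the other 4 probes overlap between the genotypes or differ by at most 1.04 in brain.

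**Figure D4:**
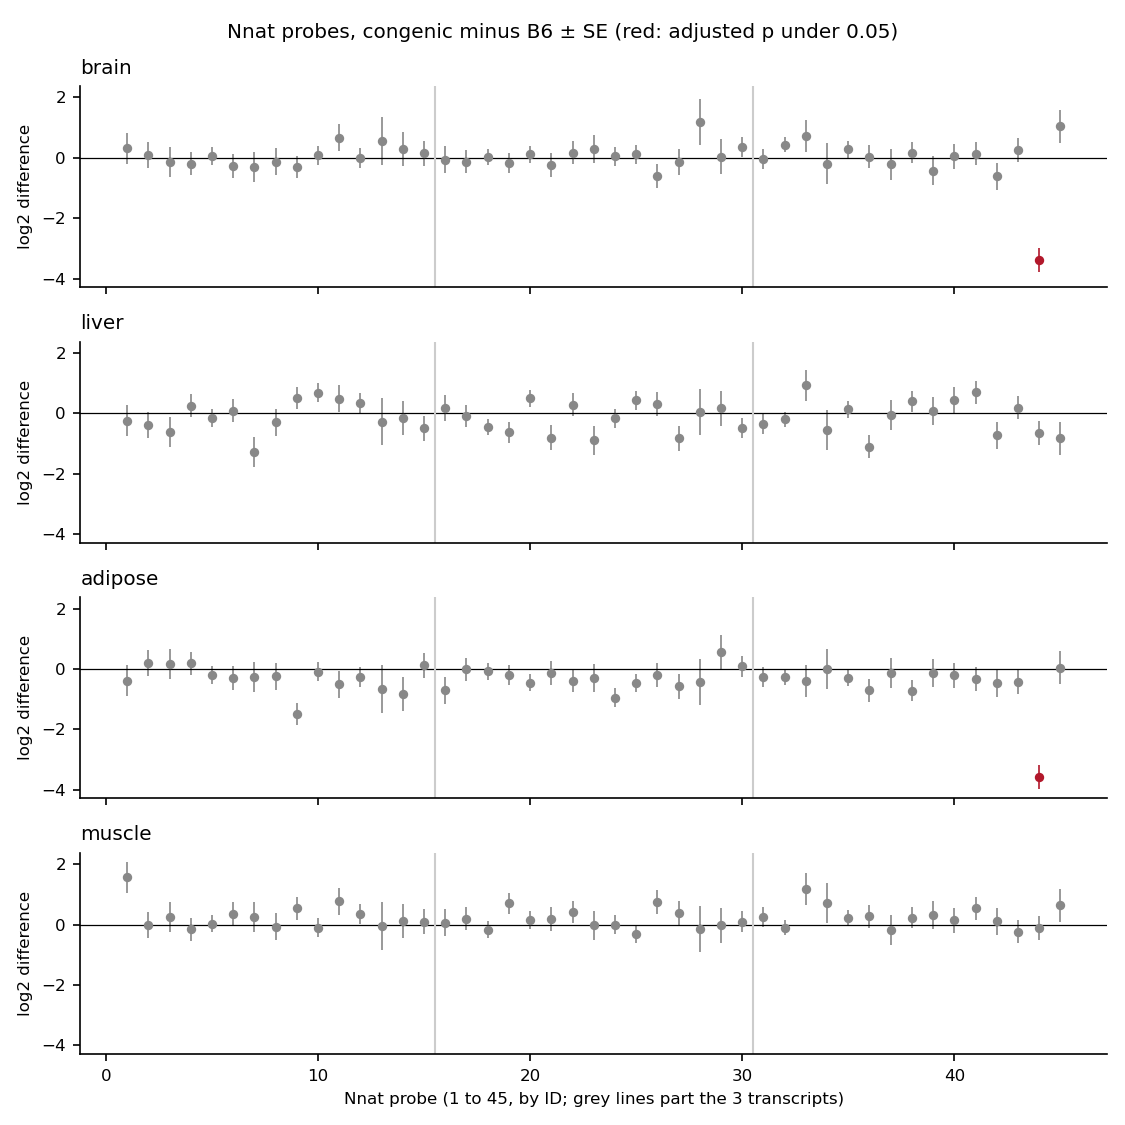
Log2 difference ± SE, congenic minus B6, of each of the 45 Nnat probes in each tissue (6 arrays a panel), in red where limma's adjusted p over 13388 probes was under 0.05. A single probe of the third transcript is red, at -3.40 in brain and -3.59 in adipose tissue, and no probe is red in liver or muscle.

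Agouti had the largest genotype difference of the 4 genes, in liver, and it did not pass. The B6 liver values were 11.13, 11.29 and 11.02, and the congenic liver values 11.96, 11.70 and 11.23. One congenic array fell within the B6 range. The log2 difference was 0.49 ± 0.13 SE, or 1.40-fold (95% interval 0.21 to 0.76, limma adjusted p = 0.0951). It rests on which arrays are used: without congenic liver replicate 3 it was 0.70 with an adjusted p of 0.000944, and the authors' probe values, summarised per gene, gave 0.05. The raw congenic liver arrays were also brighter, with medians of 456 to 741 against 232 to 454 in B6 liver, and the part of brightness in the difference was not tested.

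The exon rows of agouti moved in different directions in liver. Rows 1, 4 and 5 were higher in congenic liver by 0.53, 1.34 and 0.40, and rows 2 and 3 differed by -0.09 and -0.23, with adjusted p-values of 0.131 to 0.804. In row 1 (155076925 to 155076990) the congenic values of 12.09, 11.83 and 12.13 lay above the B6 values of 11.38, 11.41 and 11.67. Row 4 (155111024 to 155111089) was the dimmest, and its congenic liver values were 9.31, 7.82 and 6.85 against 6.68, 6.75 and 6.53 in B6 liver. A B6 brain array reached 9.06 in the same row while the other 5 brain arrays lay between 6.43 and 6.78. Without the dimmest 25% of exon rows, row 4 among them, the difference of the gene in liver was 0.20.

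In the other tissues agouti differed between genotypes by -0.01 ± 0.13 in brain, -0.15 ± 0.13 in adipose tissue and -0.00 ± 0.13 in muscle. A test of whether the difference varied with tissue gave F = 4.58 (limma adjusted p = 0.337), and without congenic liver replicate 3 it gave F = 14.1 (adjusted p = 0.0184). Between tissues agouti was at -0.24 ± 0.09 in brain relative to liver (limma adjusted p = 0.0515) and at -0.20 ± 0.09 in adipose tissue relative to muscle (adjusted p = 0.0934), both short of the threshold. The brain difference was called in 4 of 11 other settings and turned to 0.04 in the authors' probe values, and the adipose difference was called in 4 of 11 and was -0.06 there. Its last row (155113976 to 155114332) was lower in brain than in liver by -0.40 ± 0.14 (limma adjusted p = 0.0334). It was the 1 of 5 agouti rows called there, where 27.8% of all stretches were. Of the 3 probes of that row 0 were called (-0.39 to -0.15). Of all 26 agouti probes 3 were called, 1 higher and 2 lower in brain, where 18.9% of all probes were. By mean level agouti was highest in congenic liver (11.63 ± 0.37) and lowest in congenic adipose tissue (11.06 ± 0.21), and among neighbours in its order of groups only congenic muscle and B6 adipose tissue lay farther apart (0.12) than the larger of their SDs.

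**Figure D5:**
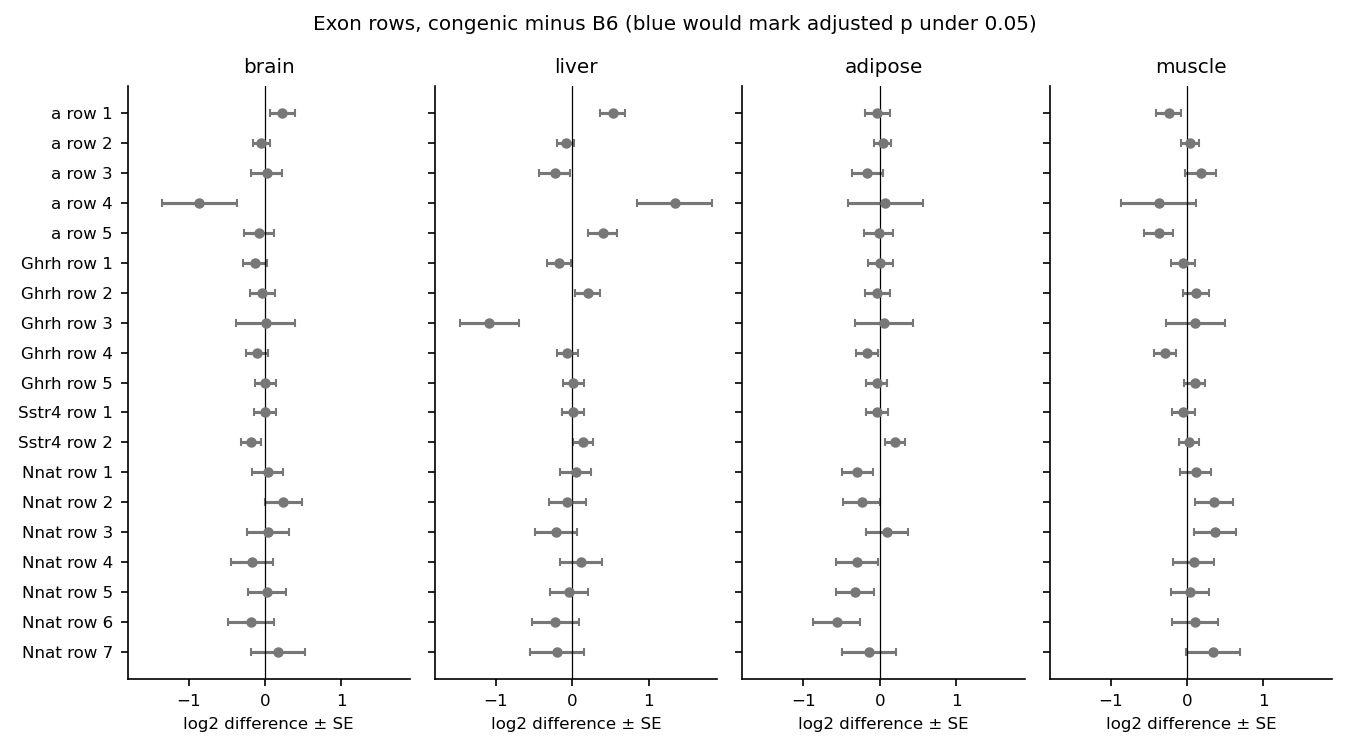
Log2 difference ± SE, congenic minus B6, of each of the 19 exon stretches of the 4 genes in each tissue (6 arrays a panel). No stretch is blue, so none passed an adjusted p of 0.05; agouti row 4 at 1.34 and Ghrh row 3 at -1.09 in liver lie farthest from 0.

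No difference in the gene value of Ghrh between genotypes or tissues passed the test. Its values lay between 11.24 and 11.80 on all 24 arrays. The genotype differences ran from -0.06 ± 0.10 in liver to 0.03 ± 0.10 in brain, and the 95% intervals of the 4 tissues lay between -0.26 and 0.23. Brain was at 0.13 ± 0.07 relative to liver (limma adjusted p = 0.163) and adipose tissue at -0.06 ± 0.07 relative to muscle (adjusted p = 0.538). None of its 5 exon rows passed in any comparison. Of its 15 probes 2 were called between brain and liver, where 18.9% of all 13388 probes were. Both were of the row at the lowest coordinate and went in opposite directions (0.60 and -0.55). Between adipose tissue and muscle 0 were called, where 17.7% of all probes were. By genotype 0 were called in any tissue, where 0.418% to 0.799% of all probes were. The largest row difference, -1.09 ± 0.38 in row 3 (157396726 to 157396828) in liver (adjusted p = 0.195), came from B6 liver replicate 1 at 11.13. Replicates 2 and 3 of that group were at 9.17 and 8.80, and congenic livers at 8.05, 8.90 and 8.89. Whole brain RNA holds the hypothalamus, where Ghrh is expressed, as a small share. By mean level the groups ranked from congenic muscle (11.64 ± 0.04) to congenic liver (11.33 ± 0.06), with no neighbours farther apart than the larger of their SDs.

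Sstr4 was slightly lower in brain than in liver. The B6 brain values were 10.28, 10.25 and 10.29 and the congenic brain values 10.07, 10.38 and 10.10. The B6 liver values were 10.68, 10.29 and 10.18 and the congenic liver values 10.49, 10.43 and 10.45. The tissues overlapped, since 2 B6 liver arrays lay within the range of the brain arrays. The log2 difference was -0.19 ± 0.07, or 1.14-fold (limma adjusted p = 0.0389). It was called in 5 of 11 other settings, lost the call without any 1 of 9 of the 24 arrays, among them B6 liver replicate 1, without which it was -0.12 (adjusted p = 0.111), and it was 0.01 in the authors' probe values.

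The 2 exon rows of Sstr4 disagreed. Row 1 (148147904 to 148149325) was lower in brain by -0.42 ± 0.10 (limma adjusted p = 0.00403), and row 2 (148152496 to 148153504) differed by 0.04. Among its 16 probes, 2 of row 1 were called lower in brain (-0.76 and -0.75) and 2 of row 2 higher (1.63 and 1.52). Of all 13388 probes 18.9% were called between brain and liver. The gene value averages these, so its direction in brain is not that of all its probes. Sstr4 was on the list of neuronal genes, of which it was the 1 called lower in brain. Between genotypes it differed by -0.09 ± 0.10 in brain, 0.07 ± 0.10 in liver, 0.09 ± 0.10 in adipose tissue and -0.01 ± 0.10 in muscle. Between adipose tissue and muscle it differed by -0.09 ± 0.07 (limma adjusted p = 0.339). Of its 16 probes (-0.82 to 0.55) 2 were called lower in adipose tissue, 1 in each row, where 17.7% of all probes were called. Its group means ran from 10.46 ± 0.03 in congenic liver to 10.18 ± 0.17 in congenic brain, with no neighbours farther apart than the larger of their SDs.

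Across the 4 genes, none of 16 genotype tests by tissue passed in limma after adjustment over 341 genes, and 1 had an unadjusted p under 0.05 (agouti in liver). Genes called by genotype were 0.880% of all in brain, 0.587% in liver, 1.47% in adipose tissue and 0.587% in muscle, so a count of 0 among 4 members is close to the background. The mean over the 4 tissues gave 0 of 4 called where 2.05% of genes were, with differences of 0.08 for agouti, -0.02 for Ghrh, 0.01 for Sstr4 and -0.07 for Nnat. The test of whether the genotype difference varied with tissue gave 0 of 4 where 0.293% were called. Among the exon stretches 0 of 19 passed in any tissue (lowest adjusted p = 0.131), where 0.355% of all stretches were called in brain, 1.03% in liver, 0.387% in adipose tissue and 0.355% in muscle, with 3 of 76 tests at an unadjusted p under 0.05.

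Few genes of the same pathways were on the array. Of 32 genes of the growth hormone axis 4 were measured (Ghrh, Sstr4, Foxa2 and Src), 0 were called by genotype, and between brain and liver 0 were called higher and 2 lower, Sstr4 and Foxa2, a hepatocyte transcription factor (-0.29 ± 0.09), where 34.3% of all genes were called. The call of Sstr4 held in 5 of 11 other settings. Of 25 genes of melanocortin signalling and appetite 3 were measured (agouti, Nnat and Lep, which encodes leptin), and 0 were called by genotype. Nnat was the 1 called higher in brain, and in adipose tissue, where 36.1% of all genes were called, Lep joined it at 0.35 ± 0.12 above muscle (limma adjusted p = 0.0350).

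The genes whose group means were most like those of each member, by Pearson r over 8 group means, were Abhd12 (0.957), Zmynd8 (0.942) and Pygb (0.924) for Nnat. For agouti they were the unnamed transcript BC038256 (0.869), Spag4 (0.819) and E2f1 (0.814). For Ghrh they were Rbm39 (0.948), Spata25 (0.947) and Ccn5 (0.944), and for Sstr4 Ube2c (0.964), Bpifa3 (0.896) and BC038256 (0.886). The 8 means share arrays and slides, and Zmynd8 itself ranged over 0.10 log2 units, so the likeness is of shape alone.

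Within 1 Mb of the members a few other genes were called by genotype, none of them in liver. Of all 341 genes 0.880% were called in brain, 0.587% in liver, 1.47% in adipose tissue and 0.587% in muscle. Near agouti, of 44 genes, Uqcc1, which encodes a mitochondrial complex assembly factor, was lower in congenic muscle (-0.52, adjusted p = 0.000771). Near Nnat, of 31 genes, the long noncoding RNA gene Snhg11 was lower in congenic brain (-0.62, adjusted p = 0.0237) and Adig, which encodes adipogenin, was lower in congenic adipose tissue (-0.41, adjusted p = 0.00872). Near Sstr4, of 16 genes, Napb, which encodes a vesicle fusion protein, was lower in congenic brain (-0.63, adjusted p = 0.0237) and Cstdc2 in congenic adipose tissue (-0.93, adjusted p = 0.0306). Near Ghrh, of 33 genes, the transcript AK016198 was lower in congenic brain (-0.55, adjusted p = 0.0237). Snhg11 and Napb are themselves on the list of neuronal genes whose sum was lower in congenic brain.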

How the data were processed

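Total RNA was labelled as biotin cRNA and hybridised to 12-well NimbleGen arrays, per the labels' protocols. The deposited scanner files give 1 average intensity per exon row, not normalized per the file headers, and the deposited series table gives a normalized intensity per probe, made with RMA per the submitters' processing notes (column medians 438.6 to 441.3). Its columns name groups but match arrays within a group loosely (7 of 24 best with their own replicate, none with another group), so they were used as group replicates. Row intensities were background-corrected (normexp, offset 50), quantile-normalized as linear values and put on the log2 scale. Quantile normalization of log2 values had been run first, and the linear form was taken after the outcomes were seen because it matched the processing of an earlier analysis of these data (both are given below). Exon rows of 1 gene that share both coordinates were averaged, and genes were summarised by median polish. limma 3.58.1 (R 4.3.3) fitted 8 group means with shared spread, adjusted over 341 genes, 3099 stretches or 13388 probes (Benjamini-Hochberg, 0.05). The fit was tested on simulated data with independent noise. Those data had no slide or brightness differences and no outlying arrays, so that test does not cover them. Probes were assigned to rows by the order of their IDs (r = 0.991 with row brightness within transcripts). Replicate numbers were not used as pairs. Same-numbered B6 and congenic samples of the same tissue, as deviations from their group means, correlated above 0.1 in 5 of 12 pairs (-0.45 to 0.51). Same-numbered samples of different tissues were not compared. Members and lists were chosen with earlier results of these data known. Named genes were the members, their 3 most alike genes, neighbours within 1 Mb called by genotype and list members called. Alternatives were other background corrections, scalings, summaries, filters, blocks and left-out arrays.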

Additional observations from a re-analysis of the deposited data

Results flagged for a closer look

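The fourth probe of the shorter stretch (row 6) of the last Nnat exon had a genotype difference that varied with tissue, by limma's test of the interaction (F = 20.8, adjusted p = 0.00195 over 13388 probes, where 0.246% were called). Congenic minus B6 was -3.40 in brain and -3.59 in adipose tissue, against -0.66 in liver and -0.10 in muscle. In brain and in adipose tissue 3 of 3 congenic arrays lay below 3 of 3 B6 arrays. How many of all probes separate in this way was not computed. In liver and muscle the B6 intensity was itself 110 to 239, against 1307 to 3636 in B6 brain and adipose tissue. The other 44 Nnat probes were not called by genotype in any tissue. The match of the fourth probe to B6 and SPRET/Ei sequence was not tested. Groups of 3 arrays are too small for a test of single outlying arrays.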

How the results depend on the processing

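The higher Nnat level in brain and in adipose tissue kept its direction and its call under 12 of 12 other settings and in 24 of 24 fits without 1 array, at 1.01 (no background correction and median scaling) to 1.80 (probe values without 1 probe) and 0.90 (no background correction) to 1.46. The genotype difference of the single Nnat probe passed in 24 of 24 such fits (mean over tissues -2.03 to -1.82), and was -1.72 with 50 added before log2. Quantile normalization of log2 values was the first setting run; it, and the probe values without that Nnat probe, were added after seeing the data. It left agouti in liver at 0.47 (adjusted p = 0.0853) and the counts of members called between tissues and between genotypes the same, and turned agouti in muscle to 0.00068. Members called between brain and liver numbered 2; the count was 1 with no background correction, in the authors' probe values and with only the 2 tissues fitted, and 1 to 3 without 1 array. Sstr4 was called in 5 of 11 other settings (-0.24 to 0.0057), and agouti in 4 of 11, so a count of 2 is not always the same 2 genes. Sstr4 lost its call without B6 brain replicate 1, 2 or 3, B6 liver replicate 1, congenic brain replicate 1 or 3, or congenic liver replicate 1, 2 or 3 (adjusted p = 0.0521 to 0.111). Agouti gained a call there without B6 brain replicate 2 (-0.27), B6 liver replicate 3 (-0.27), congenic liver replicate 3 (-0.34) or congenic adipose replicate 1 (-0.22). Members called between adipose tissue and muscle numbered 1; the count was 2, agouti joining, with median scaling, with that and no background correction, with only the 2 tissues fitted and without the 2 arrays high in Svs4, and 1 to 2 without 1 array (agouti without congenic liver replicate 1 or 3 or congenic adipose replicate 1). Exon stretches called by genotype in liver rose from 0 to 1 with median scaling. Without 1 array the members called in liver numbered 0 to 1 and by interaction 0 to 1 (agouti, without congenic liver replicate 3), and member probes called by genotype 1 to 2. Whether replicate numbers pair samples of different tissues was not tested. With the replicate block agouti passed between brain and liver (-0.24, limma adjusted p = 0.0350). It stayed short of the threshold in liver by genotype (0.49, limma adjusted p = 0.0589), and Sstr4 was called (limma adjusted p = 0.0445). Uncalled genotype differences changed sign, and the cause was not tested. With median scaling agouti in brain was 0.064, Ghrh in liver 0.17 and Ghrh over all tissues 0.047; with no background correction as well they were 0.073, 0.24 and 0.077. With the mean of exon stretches Ghrh was -0.051 in brain and -0.0038 in muscle, and without the dimmest 25% of stretches agouti was 0.030 in brain. In the authors' probe values Ghrh was -0.13 in brain, Sstr4 -0.037 in liver, 0.0046 in muscle and -0.021 over all tissues, agouti 0.022 in adipose tissue and -0.025 over all tissues, and between brain and liver agouti was 0.041 and Sstr4 0.0057. With a block for slide and well row agouti was 0.066 and Nnat -0.010 in brain, Ghrh 0.00027 and Sstr4 -0.021 over all tissues. Without the 2 arrays high in Svs4 Nnat was 0.018 in adipose tissue, and agouti 0.031 and Sstr4 0.012 in muscle. Without 1 array the ranges that crossed 0 were agouti in brain -0.046 to 0.056, Ghrh in brain -0.052 to 0.11, Nnat in brain -0.19 to 0.24, Ghrh in liver -0.15 to 0.012, Sstr4 in liver -0.027 to 0.22, Nnat in adipose tissue -0.47 to 0.0059, agouti in muscle -0.033 to 0.058, Ghrh in muscle -0.10 to 0.11, Sstr4 in muscle -0.053 to 0.012, Ghrh over all tissues -0.042 to 0.0086, Sstr4 over all tissues -0.012 to 0.051 and Nnat over all tissues -0.13 to 0.012. The 3 arrays a group and the dim agouti row limit what these values can show.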
